A study of Mus musculus with 16 samples.

Results

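The genes described are 9 transcription regulators that are widely used to mark the layers of the cerebral cortex, followed in neural stem cells (NSC) with and without an shRNA against the long noncoding RNA *RUS*. They were taken as the lines of the expression tables whose gene name was one of the 9 symbols, out of 55365 gene lines matched between the day 5 and the day 7 table. Of these, 5 are deep-layer factors (*Tbr1*, *Tle4*, *Foxp2*, *Fezf2* and *Bcl11b*) and the other 4 are upper-layer factors (*Cux1*, *Cux2*, *Pou3f2* and *Pou3f3*). The cells came from the cortices of C57BL/6 mouse embryos of E15-16, pooled from embryos of mixed sex, and were grown as monolayers in serum-containing medium with bFGF. All libraries carried a lentivirus, added 1 d after seeding, that expressed either a scrambled shRNA (shRNA-CON) or a single shRNA against *RUS* (shRNA-RUS). On day 5 bFGF was withdrawn and the medium changed to one that starts neuronal differentiation. PolyA RNA was sequenced on day 5 and on day 7, which gave 16 libraries, 4 in each of the 4 groups, so that the study asks what targeting *RUS* does to the transcriptome at the onset of differentiation and 2 days later. With 1 shRNA against 1 scrambled control, an effect of losing *RUS* and an effect of this shRNA cannot be told apart.

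The layers of the cortex are built from the inside out. The radial glia of the ventricular zone first give rise to deep-layer neurons, which project out of the cortex to the thalamus, the brain stem and the spinal cord, and later to upper-layer neurons, most of which connect areas of the cortex with each other. The factors studied here mark these neurons and in part specify them: *Fezf2* and *Bcl11b* act in subcerebral projection neurons, *Tbr1*, *Tle4* and *Foxp2* mark the corticothalamic neurons of the deepest layer, and *Cux1*, *Cux2*, *Pou3f2* (Brn2) and *Pou3f3* (Brn1) mark upper-layer neurons. None of them is confined to these neurons. *Fezf2* and the *Pou3f* genes are also transcribed in progenitors, *Bcl11b* and *Foxp2* in striatal neurons, *Bcl11b* in many GABAergic interneurons, and *Cux1* in many tissues.

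*Pou3f2* and *Pou3f3* are close relatives that each consist of 1 exon in the GENCODE annotation of GRCm38. Their levels parted on day 5 with shRNA-RUS, as described below, and the 250 bases before their annotated starts are therefore shown (RefSeq, GRCm38.p6, 5′ to 3′ on the gene's strand). Capitals mark CCAAT, the motif bound by NF-Y, searched on both strands. *Pou3f2* lies on the minus strand with its window at chr4:22488367-22488616, and *Pou3f3* on the plus strand with its window at chr1:42695518-42695767.
Pou3f2: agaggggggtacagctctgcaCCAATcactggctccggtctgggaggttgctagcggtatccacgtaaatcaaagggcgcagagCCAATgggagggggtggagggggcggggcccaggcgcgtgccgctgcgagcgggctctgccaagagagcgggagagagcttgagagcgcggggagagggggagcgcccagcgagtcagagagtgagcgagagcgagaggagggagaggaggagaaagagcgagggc
Pou3f3: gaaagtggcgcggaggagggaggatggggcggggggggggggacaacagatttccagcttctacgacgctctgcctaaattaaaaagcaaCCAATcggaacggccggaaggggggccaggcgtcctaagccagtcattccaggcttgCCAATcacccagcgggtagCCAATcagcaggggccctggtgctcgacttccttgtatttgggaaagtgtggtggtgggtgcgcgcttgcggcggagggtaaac

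The *Pou3f2* window held 2 copies of CCAAT and the *Pou3f3* window 3, and their GC contents were 66.8% and 60.8%, both above the median of 52.0% over the 27025 promoters of the table. CCAAT was present in 34.5% of these promoters. A RefSeq promoter was given for 8 of the 9 genes, and *Tle4* was the only other one with a CCAAT in its window. The octamer ATGCAAAT, which POU factors bind, was in none of the windows of the 8 genes and in 1.61% of all promoters. TATAAA was in a second start of *Cux2* alone and in 13.0% of all promoters, the E box CANNTG was in windows of *Tbr1*, *Tle4* and *Cux2* and in 66.0%, and the GC box GGGCGG was in windows of *Tbr1*, *Fezf2*, *Tle4*, *Pou3f2* and *Pou3f3* and in 32.9%. No GC box overlapped a CCAAT in the printed windows, and a match describes letters, not binding.

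Levels are given as scaled TPM, that is the deposited TPM (transcript abundance relative to the total of its library) divided by a factor for each library, the median ratio of its genes to their mean over all libraries. TPM are corrected for transcript length, so that the levels of different genes can be set side by side, but the number of reads behind them is unknown and no counting error can be given. The library factors lay between 0.845 and 1.10 over both days, which are those of the printed levels, between 0.920 and 1.11 in the fit of day 5 and between 0.991 and 1.01 in that of day 7. Changes are log2 fold changes of scaled TPM + 0.1 with their standard error (SE), from limma fits across all genes, and a gene was called at a Benjamini-Hochberg adjusted p below 0.05. The choice of scale matters on day 5: without the factors the median gene was 0.205 lower in shRNA-RUS on the log2 scale, with them 0.061 lower, and the share of called genes that were higher was 22.7% without and 45.4% with them. The corresponding shares were 71.4% and 55.5% for day 7 against day 5 in shRNA-CON, 76.9% and 57.5% in shRNA-RUS, and 73.5% and 51.1% for the difference of the *RUS* effect between the days. On day 7 alone the scale made little difference, with medians of −0.027 and −0.029. *Gm20754*, the annotated gene of *RUS*, was too low to check that *RUS* was depleted: it had 0.235, 0.117, 0.185 and 0.167 scaled TPM in the 4 control libraries of day 5 and 0.0592, 0, 0.139 and 0.345 with shRNA-RUS, and 0.653, 0.661, 0.238 and 0.506 against 0.5, 0.348, 0 and 0.0364 on day 7. The groups overlapped on both days, with shRNA-RUS replicate 4 of day 5 above every control of that day, and neither difference passed the test (limma, day 5 −0.40 ± 0.44 SE, adjusted p = 0.519, day 7 −1.28 ± 0.61 SE, adjusted p = 0.114). On day 7 shRNA-RUS replicates 1 and 2 lay within the range of the controls, as did replicate 3 on day 5. The authors reported lower *RUS* by RT-qPCR for this experiment, which the values here cannot show, so the libraries are called by their labels throughout.

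The 9 factors spanned a wide range of levels, and the upper-layer factors were the more abundant class. In the control on day 5, *Pou3f3* (51.8 ± 2.95 scaled TPM, SD, n = 4) and *Cux1* (51.5 ± 1.00) came first with overlapping libraries, followed by *Pou3f2* (22.8 ± 0.799), *Tle4* (10.1 ± 0.742) and *Fezf2* (6.52 ± 0.626), each apart from the next. *Bcl11b* (3.58 ± 0.584) and *Cux2* (3.03 ± 0.663) overlapped, and *Foxp2* (0.564 ± 0.0565) and *Tbr1* (0.121 ± 0.0517) came last. The order with shRNA-RUS on day 5 differed only in that *Cux1* stood before *Pou3f3*, again with overlapping libraries. On day 7 *Cux1* stood apart at the top in both shRNA groups, *Tle4* reached the range of *Pou3f2* in the control, and *Bcl11b* stood above *Cux2* without overlap. *Bcl11b* and *Fezf2* overlapped in the control on day 7 and were apart with shRNA-RUS, where *Bcl11b* was the higher.

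**Figure D1:**
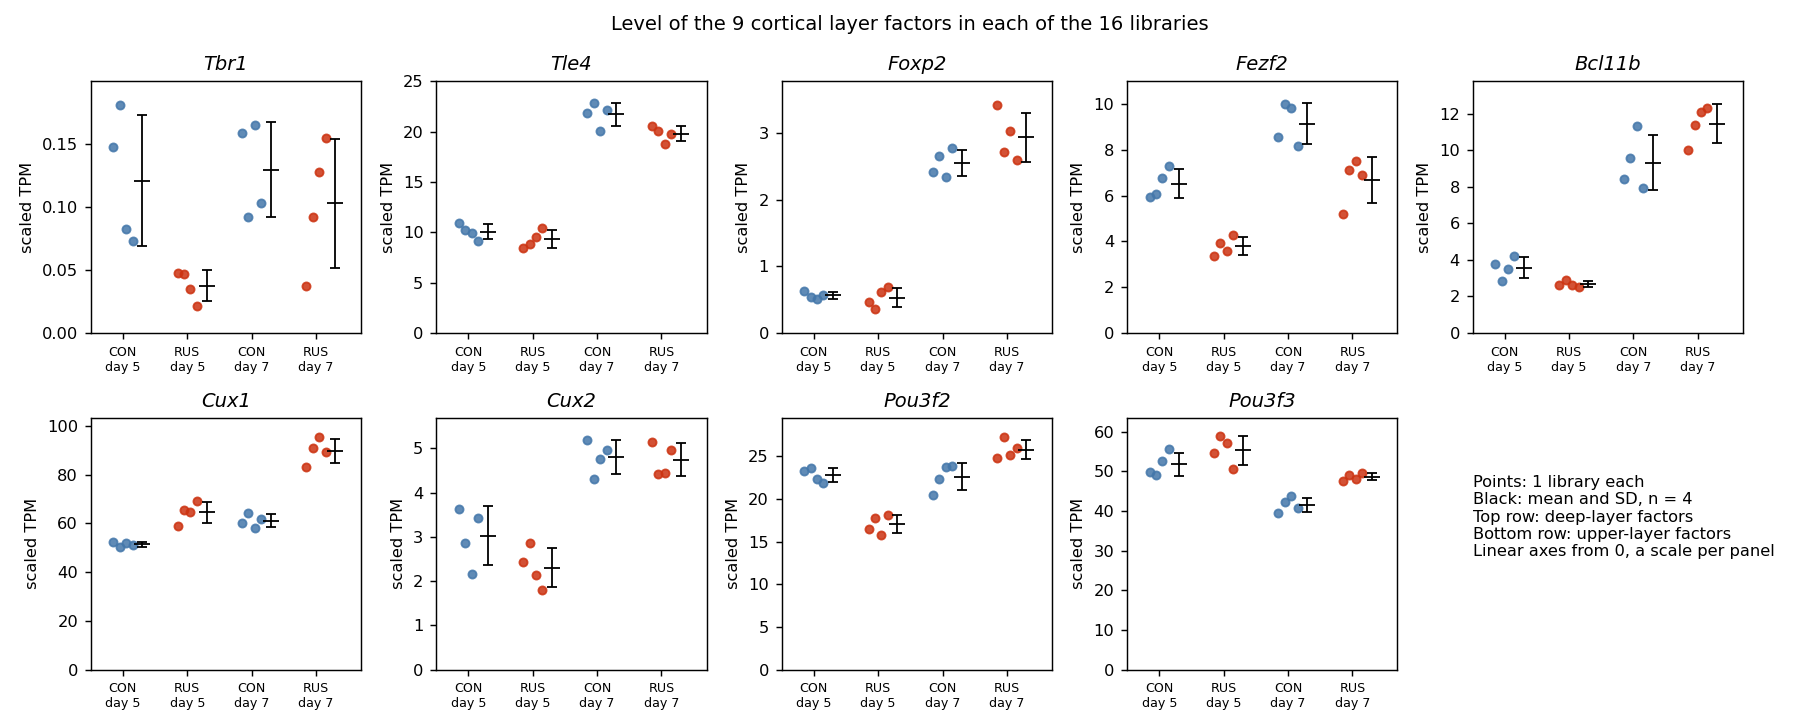
Level in scaled TPM of each factor in the 16 libraries (points), with mean and SD of the 4 libraries of a group (black), deep-layer factors above and upper-layer factors below, linear axes from 0 with a scale for each panel. *Fezf2* with shRNA-RUS lies below the control on both days, *Cux1* lies above it on both days, and *Pou3f2* lies below it on day 5 and above it on day 7.

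*Fezf2*, a zinc finger factor that specifies subcerebral projection neurons, had the largest fall among the factors tested on each day. On day 5 it had 5.93, 6.09, 6.78 and 7.28 scaled TPM in the control libraries and 3.35, 3.95, 3.60 and 4.29 with shRNA-RUS. All 4 shRNA-RUS libraries lay below all 4 controls, with a mean that was 58.3% of the control mean. The change was −0.76 on the log2 scale (SE 0.11, 95% interval −1.005 to −0.52, limma, adjusted p = 7.41e-04). On day 7 the controls had 8.58, 9.99, 9.82 and 8.18 and the shRNA-RUS libraries 5.21, 7.11, 7.50 and 6.90, again without overlap, for a change of −0.44 (SE 0.12, adjusted p = 0.0141). The changes of both days could not be told apart, with a difference of 0.31 (95% interval −0.04 to 0.66, adjusted p = 0.173), although it passed the test when replicate 1 of shRNA-RUS on day 7, the lowest of its group, was left out (0.42, adjusted p = 0.0356). The fall of *Fezf2* was called on both days under every alternative processing tried.

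*Bcl11b* (Ctip2), a zinc finger factor that acts downstream of *Fezf2* in corticospinal neurons, changed in opposite directions on the 2 days. It had 3.76, 2.83, 3.49 and 4.23 scaled TPM in the controls of day 5 and 2.62, 2.89, 2.61 and 2.50 with shRNA-RUS. Control replicate 2 fell into the range of the shRNA-RUS libraries. This was a change of −0.40 (SE 0.13, adjusted p = 0.0403 by limma). On day 7 its libraries had 8.43, 9.56, 11.3 and 7.91 in the controls and 9.99, 11.4, 12.1 and 12.3 in the shRNA-RUS libraries, which overlapped through control replicate 3, and the change was 0.32 (SE 0.12, adjusted p = 0.0482). Both calls stood close to the threshold. The day 5 call was lost in 7 of the 8 fits without 1 library, all but the one without control replicate 2, with adjusted p up to 0.103. The day 7 call was lost in 6 of the 8, all but those without control replicate 3 and without shRNA-RUS replicate 1, with adjusted p up to 0.119. The effects of the 2 days differed by 0.71 (SE 0.18, 95% interval 0.34 to 1.08, adjusted p = 0.00663), and this difference passed the test in every alternative.

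*Tle4*, a Groucho-type corepressor of corticothalamic neurons, did not pass the test on either day. Its libraries had 10.9, 10.3, 9.92 and 9.14 scaled TPM in the controls of day 5 and 8.40, 8.87, 9.54 and 10.5 with shRNA-RUS. On day 7 the values were 21.9, 22.8, 20.1 and 22.1 against 20.6, 20.1, 18.8 and 19.8. The groups overlapped on both days. The differences were −0.11 on day 5 (95% interval −0.31 to 0.09, limma, adjusted p = 0.384) and −0.12 on day 7 (95% interval −0.23 to −0.0007, adjusted p = 0.0905), and the latter was called without control replicate 3 of day 7, the lowest of its group (−0.15, adjusted p = 0.0317). Transcripts of *Tle4* share a run of 68 bases with those of its relative *Tle1*, which rose on both days, so that reads of this stretch may have been divided between them. The longest run shared by any other pair of a factor and a relative was 38 bases.

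*Foxp2*, a forkhead repressor, was low and did not pass the test on either day. It had 0.638, 0.541, 0.505 and 0.573 scaled TPM in the controls of day 5 and 0.462, 0.362, 0.613 and 0.690 with shRNA-RUS, where the shRNA-RUS libraries spread to both sides of the controls. On day 7 it had 2.42, 2.66, 2.35 and 2.77 against 3.42, 2.72, 3.04 and 2.59. The differences were −0.10 (95% interval −0.58 to 0.38, limma, adjusted p = 0.768) and 0.21 (95% interval −0.04 to 0.46, adjusted p = 0.150).

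*Tbr1*, the T-box factor that fixes the identity of corticothalamic neurons, had the lowest level of the 9. Its control libraries had 0.147, 0.180, 0.0824 and 0.0730 scaled TPM on day 5 and the shRNA-RUS libraries 0.0473, 0.0467, 0.0347 and 0.0216. All shRNA-RUS libraries lay below the controls, but the mean over the 8 libraries was under 0.1 TPM and the gene was not tested on day 5. With no filter it differed by −0.62 (SE 0.19, adjusted p = 0.0564 by limma). On day 7 the values were 0.159, 0.0918, 0.165 and 0.103 in the controls and 0.0370, 0.0916, 0.127 and 0.155 with shRNA-RUS, which overlapped (−0.20, SE 0.32, adjusted p = 0.630).

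*Cux1*, a cut-homeodomain factor, rose on both days. On day 5 it had 52.5, 50.3, 52.1 and 51.1 scaled TPM in the controls and 58.8, 65.5, 64.7 and 69.2 with shRNA-RUS. The shRNA-RUS libraries all lay above the controls, with a change of 0.32 (SE 0.058, limma, adjusted p = 0.00254). This call depended on the library factors: with TPM as deposited the groups overlapped and the change was 0.17 (adjusted p = 0.142), which is 0.37 above the median gene on that scale. On day 7 *Cux1* had 60.2, 64.4, 58.3 and 61.9 in the controls and 83.3, 91.1, 95.3 and 89.5 in the shRNA-RUS libraries, and the change of 0.57 (SE 0.050, adjusted p = 1.36e-05) held in every alternative. The larger change on day 7 exceeded that on day 5 by 0.23 (SE 0.074, adjusted p = 0.0278), or by 0.40 with TPM as deposited, a difference that was lost in 5 of the 16 fits without 1 library, those without shRNA-RUS replicate 1 of day 5 (adjusted p = 0.0527) and without control replicates 1 and 3 (0.0522 and 0.0610) and shRNA-RUS replicates 2 and 3 of day 7 (0.0513 and 0.0587). The *Cux1* gene also encodes CASP, a Golgi protein without the homeodomains, and the deposited values sum all transcripts of a gene.

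*Cux2*, its paralogue with a narrower expression in upper-layer neurons, did not pass the test on either day. It had 3.64, 2.87, 2.16 and 3.44 scaled TPM in the controls of day 5 and 2.43, 2.86, 2.14 and 1.81 with shRNA-RUS. On day 7 the values were 5.20, 4.31, 4.76 and 4.96 against 5.15, 4.42, 4.44 and 4.96. The groups overlapped on both days. The differences were −0.36 (95% interval −0.79 to 0.06, limma, adjusted p = 0.175) and −0.0059 (95% interval −0.20 to 0.19, adjusted p = 0.965). *Cux2* amounted to 5.88 ± 1.27% of *Cux1* in the control and to 3.61 ± 0.800% with shRNA-RUS on day 5, and to 7.88 ± 0.831% and 5.31 ± 0.694% on day 7 (SD, n = 4).

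*Pou3f2*, a POU-homeodomain factor that promotes the production and migration of upper-layer neurons, fell on day 5 and rose on day 7. On day 5 it had 23.3, 23.6, 22.4 and 21.9 scaled TPM in the controls and 16.5, 17.8, 15.8 and 18.1 with shRNA-RUS. All shRNA-RUS libraries lay below all controls, and the change of −0.42 (SE 0.063, adjusted p = 0.00109 by limma) held in every alternative. On day 7 its libraries had 20.4, 22.4, 23.8 and 23.9 in the controls and 24.8, 27.3, 25.1 and 26.0 with shRNA-RUS, now all above the controls, for a change of 0.20 (SE 0.059, adjusted p = 0.0169) that was lost without shRNA-RUS replicate 2 (0.18, adjusted p = 0.0507). The effects of the 2 days differed by 0.61 (SE 0.084, 95% interval 0.43 to 0.79, adjusted p = 1.04e-04), which passed the test in every alternative.

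*Pou3f3*, which can replace *Pou3f2* in many settings, did not follow it on day 5. It had 49.9, 49.0, 52.7 and 55.5 scaled TPM in the controls of day 5 and 54.6, 58.8, 57.2 and 50.5 with shRNA-RUS. The groups overlapped, with a difference of 0.10 (95% interval −0.05 to 0.25, limma, adjusted p = 0.307). On day 7 it had 39.4, 42.2, 43.7 and 40.8 in the controls and 47.6, 49.1, 48.1 and 49.6 with shRNA-RUS, all above the controls, and the change of 0.24 (SE 0.041, adjusted p = 8.51e-04) held in every alternative. *Pou3f2* amounted to 44.3 ± 4.00% of *Pou3f3* in the controls of day 5 and to 31.0 ± 3.48% with shRNA-RUS, with ranges of 39.5 to 48.3% and 27.7 to 35.9% that did not overlap. On day 7 the ratio was 54.5 ± 2.91% and 53.1 ± 1.68%, with overlapping ranges. These ratios within a library do not depend on the library factors.

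**Figure D2:**
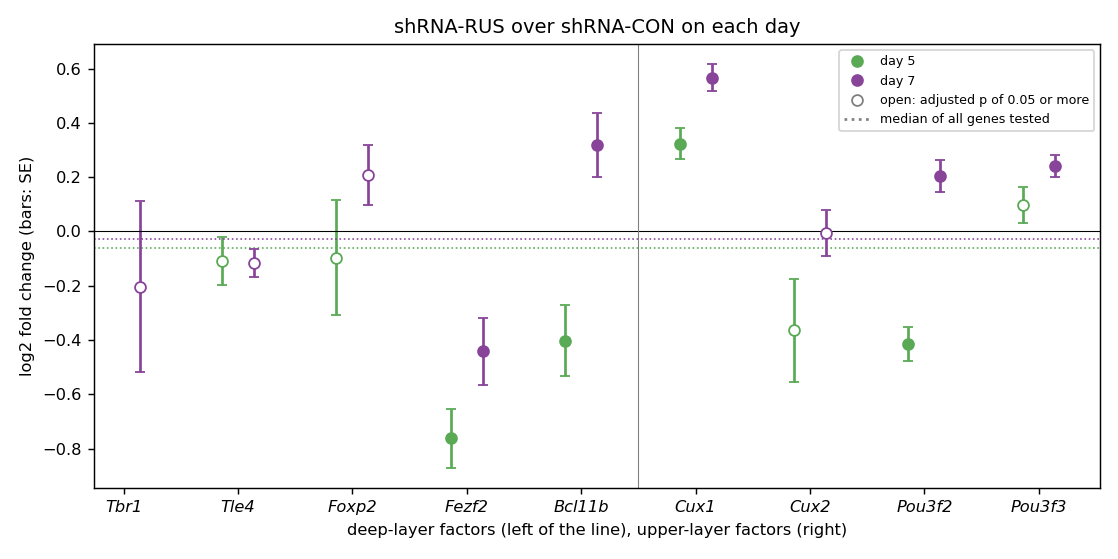
Change with shRNA-RUS against shRNA-CON on each day as log2 fold change with SE (n = 4 against 4), filled where the adjusted p of limma was below 0.05, with the median of all genes tested on each day as a dotted line. *Fezf2* is lower and *Cux1* higher on both days, *Bcl11b* and *Pou3f2* change sign between the days, and *Tbr1* was not tested on day 5.

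Counted together, the 9 factors moved in both directions on both days. On day 5, 8 of them passed the filter on low values, of which 1 was higher and 3 were lower, where 14.8% of all 22581 genes tested were higher and 17.9% lower. Of the 4 deep-layer factors tested, 2 were lower (*Fezf2* and *Bcl11b*) and none higher, with a median change of −0.26 against −0.06 over all genes. Of the 4 upper-layer factors, *Cux1* was higher and *Pou3f2* lower, with a median of −0.14. On day 7 all 9 were tested, of which 4 were higher and 1 was lower, beside 23.4% higher and 25.8% lower of 24606 genes. Without shRNA-RUS replicate 2 of day 7 only 3 were called, *Bcl11b* and *Pou3f2* being lost. The upper-layer factors had 3 higher (*Cux1*, *Pou3f2* and *Pou3f3*), none lower and a median of 0.22, and the deep-layer factors had 1 higher (*Bcl11b*), 1 lower (*Fezf2*) and a median of −0.12, against −0.03 over all genes. The *RUS* effect was more positive on day 7 than on day 5 in 3 factors (*Bcl11b*, *Pou3f2* and *Cux1*) and more negative in none, beside 15.2% and 14.6% of 23789 genes. The factors were few and chosen with earlier results known, so these counts and medians are a description of them.

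The balance between the classes shifted towards the upper-layer factors with shRNA-RUS on both days. The summed level of the 5 deep-layer factors was 21.4, 19.9, 20.8 and 21.3 scaled TPM in the controls of day 5 and 14.9, 16.1, 16.4 and 18.0 with shRNA-RUS, while that of the 4 upper-layer factors was 129.4, 125.8, 129.4 and 132.0 against 132.3, 145.0, 139.8 and 139.6. The deep-layer sum therefore made up 16.1 ± 0.288% of the upper-layer sum in the controls and 11.7 ± 0.806% with shRNA-RUS (SD, n = 4), with ranges of 15.8 to 16.5% and 11.1 to 12.9%. On day 7 the deep-layer sums were 41.5, 45.1, 43.7 and 41.1 in the controls and 39.3, 41.4, 41.5 and 41.8 with shRNA-RUS, which overlapped, and the upper-layer sums were 125.3, 133.2, 130.6 and 131.5 against 160.9, 171.9, 172.9 and 170.1, which did not. The ratio was 32.9 ± 1.16% in the controls and 24.3 ± 0.257% with shRNA-RUS, with ranges of 31.2 to 33.9% and 24.0 to 24.6%. Each ratio is formed within a library and is not changed by a factor for the whole library.

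The sums are carried by the abundant genes. *Cux1* alone made up 39.9% of the upper-layer sum in the controls of day 5 and 46.3% with shRNA-RUS, and 47.0% and 53.1% on day 7. Without it, a choice made after the values were seen, the deep-layer sum was 26.9 ± 0.693% and 22.0 ± 2.49% of the remaining upper-layer sum on day 5 and 62.2 ± 2.97% and 51.8 ± 1.23% on day 7, still lower in every shRNA-RUS library than in every control of its day. With the median of each class in place of its sum, the ranges overlapped on day 5 (8.59 to 12.9% in the controls, 8.57 to 9.19% with shRNA-RUS) and were apart on day 7 (25.6 to 31.3% and 15.4 to 21.8%). The shift describes these 9 factors and not layer genes at large. The further deep- and upper-layer genes described below had median changes of −0.058 and 0.065 on day 5 and of 0.228 and 0.198 on day 7.

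**Figure D3:**
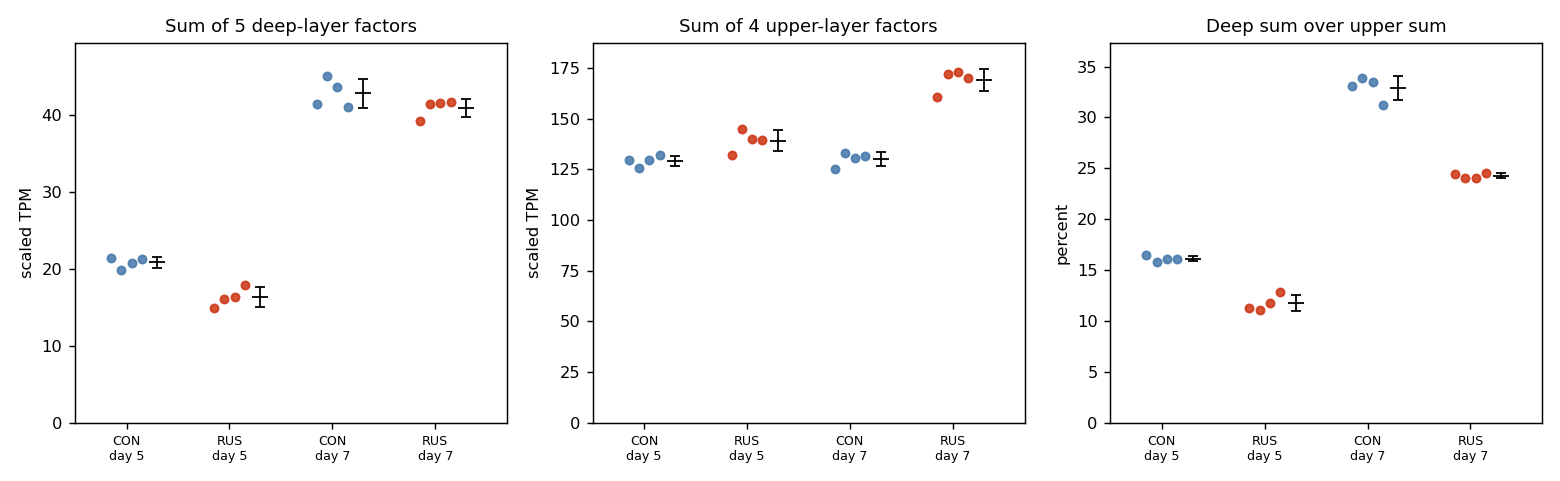
Summed scaled TPM of the 5 deep-layer factors (left), of the 4 upper-layer factors (middle) and their ratio in percent (right) for each library (points), with mean and SD of 4 libraries (black), linear axes from 0. The ratio rises from day 5 to day 7 with either shRNA and lies lower with shRNA-RUS on both days.

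From day 5 to day 7, 4 of the 5 deep-layer factors rose with either shRNA. In the control 6 of the 9 were higher on day 7 and 1 was lower, beside 26.9% and 21.6% of all genes, and with shRNA-RUS 7 were higher and 1 was lower, beside 35% and 25.8%. *Foxp2* rose by 2.00 on the log2 scale in the control (limma, adjusted p = 4.88e-08) and by 2.29 with shRNA-RUS (adjusted p = 5.87e-09), values that depended on the pseudocount at its low level: with a pseudocount of 1 they were 1.18 and 1.36, where *Bcl11b* had 1.17 and 1.77. *Bcl11b* rose by 1.36 and 2.07 (adjusted p = 2.45e-07 and 1.34e-09), *Tle4* by 1.10 and 1.08 (adjusted p = 5.11e-09 and 3.76e-09) and *Fezf2* by 0.48 and 0.79 (adjusted p = 0.00271 and 2.13e-05). All 4 lay above their day 5 range in every day 7 library, but the share of all genes that did so was not counted. *Tbr1* did not pass the test (0.07 and 0.53, adjusted p = 0.854 and 0.0996). The median of the deep-layer class was 1.10 in the control and 1.08 with shRNA-RUS, against 0.07 and 0.13 over all genes.

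The upper-layer factors were less uniform in time. *Cux2* rose by 0.67 in the control and by 1.02 with shRNA-RUS (limma, adjusted p = 0.00170 and 2.58e-05), and *Cux1* by 0.25 and 0.48 (adjusted p = 9.73e-04 and 9.16e-07), or by 0.40 and 0.80 with TPM as deposited. *Pou3f2* differed by −0.01 in the control (adjusted p = 0.881) and rose by 0.59 with shRNA-RUS (adjusted p = 3.55e-07), or by 0.92 with TPM as deposited. *Pou3f3* was the only factor that fell, by 0.32 in the control (adjusted p = 1.26e-04) and by 0.18 with shRNA-RUS (adjusted p = 0.00708), and both values depended on the scale. With TPM as deposited the control libraries of the 2 days overlapped and the change was −0.17 (adjusted p = 0.0146), and with shRNA-RUS the gene was 0.14 higher on day 7 (adjusted p = 0.0261). These are 0.37 and 0.27 below the median gene on that scale. The median of the upper-layer class was 0.12 in the control and 0.53 with shRNA-RUS. The deep-layer sum as a percentage of the upper-layer sum went from 16.1 to 32.9% in the control and from 11.7 to 24.3% with shRNA-RUS. The difference between the 2 rises of a gene is its difference of the *RUS* effect between the days given above, and these comparisons share their libraries with those between the shRNAs.

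**Figure D4:**
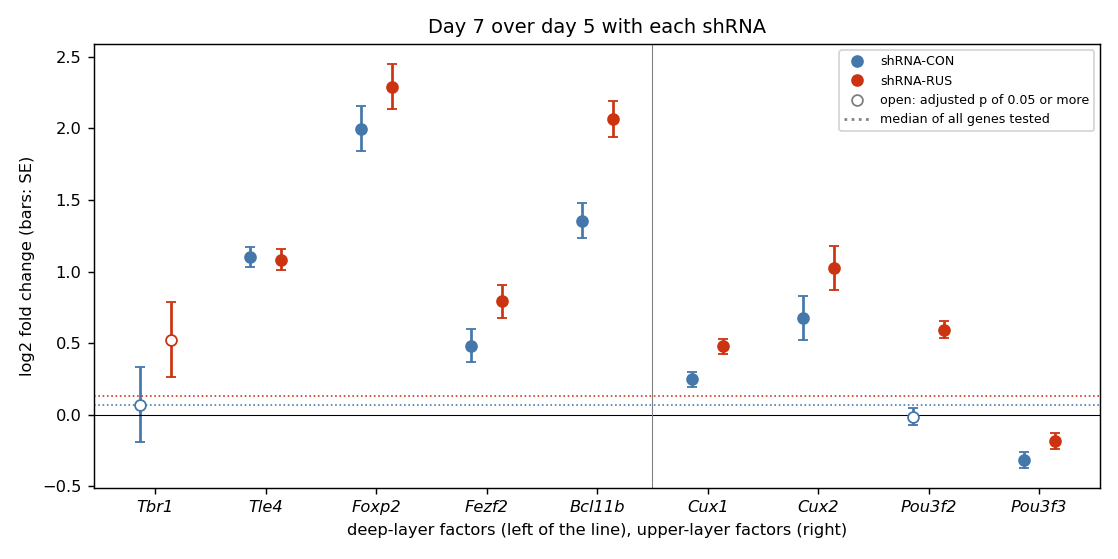
Change from day 5 to day 7 with each shRNA as log2 fold change with SE from a fit of all 16 libraries, filled where the adjusted p of limma was below 0.05, with the median of all genes as a dotted line for each shRNA. *Foxp2* and *Bcl11b* rise most, *Pou3f2* rises only with shRNA-RUS and *Pou3f3* falls with both.

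In bulk RNA, fewer cells of a type and less RNA per cell cannot be told apart, and the layer factors were therefore set beside markers of the cells that such cultures can hold. The cells had the markers of NSC and radial glia (8 genes including *Nes*, *Sox2* and *Vim*), whose summed level was 12510 to 14660 scaled TPM in the controls of day 5. Most of this sum came from *Vim* and *Fabp7*. The defining markers of glutamatergic cortical neurons were near 0: *Neurod2*, *Neurod6* and *Slc17a6* had group means of at most 0.0964 scaled TPM, and 5 of the 6 genes of the list were under 1 TPM in every group, all but *Nrn1*. By contrast the 10 GABAergic markers summed to 189.6 to 228.6 scaled TPM in the controls of day 5, with *Dlx1* at 103.5 ± 8.30 and *Gad1* at 27.6 ± 2.70.

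The GABAergic markers were mixed on day 7. On day 5, 5 of the 10 were lower with shRNA-RUS and none higher, beside 17.9% and 14.8% of all genes, with sums of 154.5 to 190.3 against 189.6 to 228.6, and on day 7, 4 were higher and 2 lower (*Sst* and *Npy*), beside 23.4% and 25.8% of all genes, with sums of 290.0 to 333.5 against 268.1 to 284.6. *Dlx1* changed by −0.25 and 0.22 (limma, adjusted p = 0.0286 and 0.0157) and *Gad1* by −0.34 and 0.27 (adjusted p = 0.0111 and 0.00271). Of the 10, these were the only 2 called lower on day 5 and higher on day 7, as *Bcl11b* and *Pou3f2* were. *Sst* and *Npy* changed by −1.12 and −0.94 on day 7. None of the 10 markers was at 0 in all libraries of a group, and their part in the changes of *Bcl11b*, *Pou3f2* and *Foxp2* was not tested. The glutamatergic list had none called of 3 tested on day 5 (sums 8.96 to 11.4 against 10.4 to 12.6) and 2 lower on day 7, *Nrn1* and *Neurod1* (4.96 to 5.92 against 17.2 to 18.7), while *Fezf2* fell on both days. The sums of this list were carried by *Nrn1*, with means of 17.0 in the control and 5.06 with shRNA-RUS on day 7. *Neurod1* had 0.591 and 0.206 in these groups.

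The shares of all genes called, to be held against the lists that follow, were 14.8% higher and 17.9% lower on day 5 and 23.4% and 25.8% on day 7. All 6 proliferation markers fell on both days, with sums of 368.3 to 412.1 against 649.7 to 678.5 on day 5 and 267.4 to 301.2 against 673.6 to 683.5 on day 7. The NSC and radial glia list had 3 higher and 2 lower of 8 on day 5 (17780 to 21280 against 12510 to 14660) and 2 higher and 4 lower on day 7 (7050 to 7711 against 6864 to 7115). As with the layer factors, the sums are carried by the abundant genes of a list. Here these were *Vim* (9181 in the control and 13490 with shRNA-RUS on day 5) and *Fabp7* (3617 and 5150). *Nes*, of lower level, went from 57.6 to 31.4 on that day. Of 12 neuronal markers 3 were higher and 3 lower on day 5 (700.1 to 762.2 against 634.9 to 727.5) and 6 higher and 4 lower on day 7 (806.9 to 938.8 against 818.7 to 911.5). The 4 markers of cortical identity had 1 higher and none lower on day 5 (142.7 to 176.8 against 137.8 to 156.7) and 2 higher and 1 lower, *Emx1*, on day 7 (149.0 to 174.1 against 124.5 to 151.4).

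The glial and non-neural lists stand beside the same shares of all genes. The astrocyte list had 1 higher and 2 lower of 6 on day 5 (3382 to 3613 against 2548 to 2673) and 2 higher and 1 lower on day 7 (1187 to 1358 against 1065 to 1082). Its sum is carried by *Gfap*, with 1848 in the control and 2791 with shRNA-RUS on day 5. The oligodendrocyte lineage had 4 lower of 7 on day 5 (165.5 to 253.6 against 247.1 to 329.0) and 6 lower on day 7 (238.0 to 262.4 against 374.4 to 411.0). Microglial markers had 1 lower of 6 on day 5 (68.4 to 85.3 against 77.2 to 82.0) and 6 lower on day 7 (77.6 to 100 against 185.0 to 196.1). The endothelial and mesenchymal list had 1 higher of 4 tested on day 5 (17.4 to 23.7 against 16.7 to 18.7) and 2 higher on day 7 (26.8 to 29.9 against 11.4 to 12.5), with *Cldn5* at 0 in all controls and *Cdh5* at 0 in all shRNA-RUS libraries of day 7. *Pdgfrb* carries this sum, with 10.6 in the control and 26.3 with shRNA-RUS on day 7. The part of any of these lists in the changes of the layer factors was not tested.

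Most neuronal markers, like 4 of the 5 deep-layer factors, rose with time. From day 5 to day 7, 9 of the 12 neuronal markers were higher and 2 lower in the control, and 10 and 2 with shRNA-RUS, beside 26.9% and 21.6%, and 35% and 25.8%, of all genes. The GABAergic list had 6 higher and none lower of 10 in the control and 7 higher and 2 lower with shRNA-RUS, and the glutamatergic list 2 higher and 1 lower of 3 tested, and 1 and 2. The NSC and radial glia list had 2 higher and 3 lower of 8, and 1 and 6. The proliferation list had none called of 6 in the control and 4 lower with shRNA-RUS, and the cortical identity list 1 higher and 1 lower of 4, and 2 and 2. The astrocyte list had 1 higher and 4 lower of 6, and 1 and 3, the oligodendrocyte lineage 5 higher and 1 lower of 7, and 5 and none, the microglial list 5 higher and none lower of 6, and 3 and none, and the endothelial and mesenchymal list none higher and 2 lower of 4 tested, and 1 and 1. Their part in the rise of the deep-layer factors was not tested.

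The difference of the *RUS* effect between the days, which was more positive on day 7 for *Bcl11b*, *Pou3f2* and *Cux1*, stood beside differences in several lists. More positive and more negative were 4 and 1 of the 12 neuronal markers, 3 and none of the 10 GABAergic, none and 1 of the 3 glutamatergic, none and 4 of the 8 NSC and radial glia, 1 and none of the 4 cortical identity and none and 4 of the 6 proliferation markers, where 15.2% and 14.6% of all genes were. For the other lists they were 2 and 2 of the 6 astrocyte, 1 and none of the 7 oligodendrocyte, none and 5 of the 6 microglial and 1 and none of the 4 endothelial and mesenchymal markers. Their part in the differences of the layer factors was not tested.

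Among 10 further deep-layer genes, none was higher and 2 were lower on day 5, with a median change of −0.06, beside 14.8% higher and 17.9% lower of all genes. On day 7, 3 were higher and 2 lower, which is close to the 23.4% and 25.8% of all genes, with a median of 0.23 against −0.03 over all genes. *Crim1*, a transmembrane protein of corticospinal neurons, had 29.7 ± 5.65 scaled TPM in the control and 16.1 ± 4.18 with shRNA-RUS on day 5, a change of −0.89 (SE 0.17, limma, adjusted p = 0.00423), and 56.9 ± 3.07 and 30.9 ± 1.67 on day 7, a change of −0.87 (adjusted p = 1.76e-06). The calmodulin-binding peptide *Pcp4* fell by 0.48 (adjusted p = 0.0185) and 0.30 (adjusted p = 0.00865). On day 7 *Zfpm2* (Fog2), a cofactor of corticothalamic neurons, went from 3.88 ± 0.281 to 5.90 ± 0.221 (0.61, adjusted p = 1.13e-04) and *Sox5*, which times the production of deep-layer neurons, from 11.0 ± 0.673 to 14.3 ± 1.46 (0.39, adjusted p = 0.00313). The third gene that rose was *Crym*, a thyroid hormone-binding protein.

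Of 10 further upper-layer genes, 1 was higher and 1 lower on day 5, with a median of 0.06, and 2 were higher and 1 lower on day 7, with a median of 0.20, beside the same shares of all genes. *Mdga1*, an adhesion protein of migrating upper-layer neurons, rose by 0.25 on day 5 (limma, adjusted p = 0.0439) and from 8.13 ± 1.30 to 14.5 ± 1.56 scaled TPM on day 7 (0.85, adjusted p = 2.50e-04). The nuclear receptor *Rorb* rose from 4.54 ± 0.381 to 7.66 ± 0.334 on day 7 (0.76, adjusted p = 2.30e-05). The semaphorin receptor *Plxnd1* fell on day 5 (−0.45, adjusted p = 0.0188) and *Lmo4*, a LIM-only regulator, on day 7 from 123.3 ± 2.72 to 110.7 ± 4.40 (−0.14, adjusted p = 0.00847). From day 5 to day 7 the further deep-layer genes had 3 higher and 4 lower in the control and 4 higher and 1 lower with shRNA-RUS, and the further upper-layer genes 4 higher and 2 lower, and 4 and 4, beside 26.9% and 21.6% of all genes in the control and 35% and 25.8% with shRNA-RUS.

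Most of the closest relatives of the factors were higher on day 7. Of 9 relatives tested (*Eomes*, *Bcl11a*, *Pou3f1*, *Pou3f4*, *Tle1*, *Tle2*, *Tle3*, *Foxp1* and *Foxp4*, while *Fezf1* was below the filter), 7 were higher with shRNA-RUS on day 7 and none lower, beside 23.4% and 25.8% of all genes, with a median change of 0.49. The others were *Eomes* and *Pou3f1*, which did not pass the test. *Tle1* rose from 27.8 ± 0.924 to 56.1 ± 3.30 scaled TPM (1.02, SE 0.049, limma, adjusted p = 3.75e-07) and *Foxp4* from 7.78 ± 0.721 to 13.6 ± 0.667 (0.81, adjusted p = 1.98e-05). On day 5, 2 were higher, *Foxp4* (0.72, adjusted p = 0.00199) and *Tle1* (0.38, adjusted p = 0.00262), and 2 were lower, *Tle3* (−0.33, adjusted p = 0.00367) and *Bcl11a* (−0.26, adjusted p = 0.0202). *Bcl11a*, the paralogue of *Bcl11b*, fell on day 5 and rose on day 7 (0.45, adjusted p = 0.00117) as *Bcl11b* did, and its difference between the days was 0.69 (adjusted p = 2.64e-04). From day 5 to day 7, 6 relatives were higher and 2 lower in the control, and 7 and 1 with shRNA-RUS, beside 26.9% and 21.6%, and 35% and 25.8%, of all genes. For the difference of the *RUS* effect 4 were higher and none lower, beside 15.2% and 14.6% of all genes. For that difference the further deep-layer genes had 2 higher and none lower (*Nr4a2* and *Zfpm2*) and the further upper-layer genes 3 higher and 1 lower.

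Across the 16 libraries each factor was compared with all genes of at least 1 TPM by the root mean square difference of their log2 levels, each gene centred on its own mean. *Tbr1* was below this level. The nearest genes were *Shank1* (0.170) and *Mast1* (0.175) for *Bcl11b*, *Myo7a* (0.136) and *Cfap97d2* (0.138) for *Fezf2*, *Nmnat2* (0.081) and *Ablim1* (0.099) for *Tle4*, and *D430041D05Rik* (0.164) and *Lrrc7* (0.196) for *Foxp2*. For the upper-layer factors they were *Gab1* (0.056) and *St3gal2* (0.065) for *Cux1*, *Wscd2* (0.131) and *Xkr6* (0.162) for *Cux2*, *Cttnbp2nl* (0.082) and *Khdrbs1* (0.093) for *Pou3f2*, and *Ptpn1* (0.047) and *Mta2* (0.066) for *Pou3f3*. No layer factor was among the 2 nearest genes of another. Among the factors themselves *Tle4* and *Cux2*, of different classes, were nearest to each other (0.282) and *Foxp2* and *Pou3f3* farthest apart (1.22). These libraries share their groups, so the values describe likeness over 4 group means and the spread around them.

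The 9 genes lie on 8 chromosomes of GRCm38, *Cux1* at chr5:136248135-136567490 and *Cux2* at chr5:121856366-122050102 on the same one. *Fezf2* lies at chr14:12342094-12348189, *Bcl11b* at chr12:107910403-108003602, *Tle4* at chr19:14448150-14598051, *Foxp2* at chr6:14901349-15441977 and *Tbr1* at chr2:61802930-61814114. *Pou3f2* lies at chr4:22482780-22488366 and *Pou3f3* at chr1:42695768-42703176. All annotated genes that overlap a factor and are in the tables had group means of at most 0.113 scaled TPM, which is small beside the levels of the factors they overlap.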

How the data were processed

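PolyA RNA of the 16 libraries was sequenced on an Illumina NextSeq by the authors, aligned with STAR to mm10 with the GRCm38 transcript table, and quantified with RSEM (versions not given in the sources used here). The authors deposited TPM per library and gene, 1 table per day. The base mean (a normalized signal), log2 fold change, score, p-value and adjusted p-value of their own DESeq2 comparison were deposited beside them and were not used here. Lines were matched between the days by name and place in the table, and 106 of 55471 were left out. No value column was unmapped and no 2 libraries were identical. The depth of a library cannot be read from TPM.

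TPM were divided by median-ratio library factors from genes above 1 TPM in every library. Each day was fitted alone for the *RUS* effect, and all 16 libraries together for changes between days and printed levels. limma 3.58.1 (R 4.3.3, trend, two-sided) was run on log2(scaled TPM + 0.1) for genes whose mean reached 0.1 TPM, after a test on simulated data. Tables were made with Python 3.11.15. Libraries were grouped as labelled, in 4 groups of 4. The series description counts 4 experiments for each condition, the labels do not say how they were separated, and p-values measure the spread between these libraries, which may be technical.

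The named genes are the 9 factors, *Gm20754*, in the lists of further deep-layer genes, upper-layer genes and relatives the 2 largest called rises and falls of genes of at least 1 TPM in each knockdown comparison, and for each factor of that level the 2 genes nearest in pattern. *Crym*, *Nr4a2*, *Bcl11a* on day 7, *Dlx1*, *Dlx6*, *Gad1*, *Sst* and *Npy* were added after their values were seen. *Pou3f1* is in 2 lists, and *Lhx2* is an upper-layer and a cortical identity gene. The factors, lists and tests were chosen with earlier results of these data known. Alternatives tried were pseudocounts of 1 and 0.01, no filter or one at 1 TPM, TPM as deposited, quantile and 75th percentile scaling, no trend, a replicate block, each library left out, and other summaries of the classes.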

Additional observations from a re-analysis of the deposited data

Results flagged for a closer look

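Of the 9 factors, 3 had a *RUS* effect that differed between day 7 and day 5 in the test of that difference (limma on all 16 libraries, day 7 minus day 5 on the log2 scale). They were *Bcl11b* (0.71, adjusted p = 0.00663), *Pou3f2* (0.61, adjusted p = 1.04e-04) and *Cux1* (0.23, adjusted p = 0.0278). For *Bcl11b* and *Pou3f2* the sign of the effect itself turned, from lower on day 5 to higher on day 7, and for *Cux1* a rise became larger. Of 10 GABAergic markers 3 were more positive on day 7 in the same test (*Gad1*, *Dlx6* and *Dlx1*) and none more negative, beside 15.2% and 14.6% of all genes, while *Sst* and *Npy* had differences of −0.55 and −0.47 that did not pass it. Of 12 neuronal markers 4 were more positive and 1 more negative, while 4 of 6 proliferation, 4 of 8 NSC and radial glia and 5 of 6 microglial markers were more negative and none more positive. The part of these markers in the values above was not tested. No library stood far from the other 3 of its group in the 36 sets of 4 values examined, where chance alone would give such a library in about 1 in 20 sets.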

How the results depend on the processing

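Of 941 single-gene values computed under alternatives, 880 kept their direction and their side of the threshold, 30 lost the call, 8 gained one, and 22 changed sign without being called on either side, none of them beyond 0.187 on the log2 scale. The 1 called value that turned was the change of *Pou3f3* from day 5 to day 7 with shRNA-RUS, −0.18 on the main scale and 0.14 with TPM as deposited, not called under quantile (−0.09) or 75th percentile scaling (−0.08). *Bcl11b* lost its day 5 call without the filter (adjusted p = 0.0725) and with quantile scaling (0.193), and its day 7 call with a pseudocount of 1 (0.0511), without the filter (0.0724), with TPM as deposited (0.0551), with 75th percentile scaling (0.0818) and without trend (0.0783). The difference of *Pou3f3* between the days was called with TPM as deposited (0.31, adjusted p = 0.00514) and quantile scaling (0.19, 0.0469), *Tle4* on day 7 with 75th percentile scaling (−0.18, 0.0401), and the rise of *Tbr1* with shRNA-RUS with TPM as deposited (0.64, 0.0486), without trend (0.53, 0.0337) and without shRNA-RUS replicate 1 of day 7 (0.70, 0.0360). The cause of these changes was not tested.

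Leaving out each library in turn gave 3 to 4 factors called on day 5 (4 with all), 3 to 6 on day 7 (5 with all, 3 without shRNA-RUS replicate 2), 7 in each fit for the control over time, 8 to 9 with shRNA-RUS (8 with all) and 2 to 4 for the difference (3 with all). The deep-layer share of the upper-layer level was 10.8, 8.94, 29.4 and 19.1% with medians in place of sums (control and shRNA-RUS of day 5, then of day 7), and 26.9, 22.0, 62.2 and 51.8% without *Cux1*, the latter chosen after seeing the data. Libraries with the same replicate number shared little deviation (correlations of −0.226 to 0.11, and not every library correlated best with its own number). This cannot show whether they were prepared together, and the labels do not say, so the main fits leave them unpaired. With the replicate block 4966 genes were called on day 5 in place of 7383, *Bcl11b* lost its day 5 call (adjusted p = 0.114), and no other call of a factor changed. The depth is unknown, so the counting error of low genes such as *Tbr1*, *Foxp2* and *Gm20754* cannot be given.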
